A study of Danio rerio with 8 samples.

Results

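The genes described here are 41 endothelial and blood-brain barrier genes, listed by name and looked up in a table of read counts per gene from zebrafish brain cells. Of the 41 names, 40 matched a row among the 31388 genes of the table and 1, emcn, matched none. The 40 comprise 14 receptors, 7 junction and adhesion genes, 5 barrier and transport genes, 10 transcription factors and 4 secreted or signalling genes. The fish were Tg(her4.1:EGFP) adults aged 6 months post fertilization (mpf), in which the her4.1 promoter drives green fluorescent protein (GFP) in radial glia, the neural stem cells of the fish brain. Their brains had been injected with peptide of the cytokine interleukin-4 (IL4) or with phosphate-buffered saline (PBS), and 24 hours post injection (hpi) the cells were dissociated and sorted by fluorescence. The groups are GFP-positive and GFP-negative cells after IL4, and GFP-positive and GFP-negative cells after PBS, with 2 libraries each. All 8 libraries carry the transgene and come from an injected brain, and none comes from an uninjected one. Nothing in the labels tells if libraries of a group came from different fish. The p-values therefore measure the spread between these libraries, which may be technical.

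Endothelial cells line blood vessels and are kept in that state by ETS and SOXF transcription factors, while vascular endothelial growth factor (VEGF) and angiopoietin receptors on their surface govern growth and stability. VE-cadherin and claudin-5 seal the contacts between the cells. In the brain, Wnt signals from neural cells add a barrier programme in which Glut1 carries glucose, Mfsd2a carries lipids and the fenestral protein Plvap is kept low in mature vessels, as shown mainly in mice.

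Total counts per library lay between 19242851 and 26582271. The sort matched its labels: her4.1 had 988 and 964 CPM (read counts put on one scale by TMM-adjusted library size) in IL4 GFP-positive libraries, against 10.5 and 8.92 CPM in IL4 GFP-negative ones, and the PBS libraries were split in the same way, with 1377 and 1316 against 9.27 and 9.24 CPM. Each GFP-negative library is a mixture of neurons, microglia, vessel cells and other cells sorted as GFP-negative. GFP in endothelial cells was not measured. In such bulk libraries, fewer endothelial cells and less RNA of a gene per endothelial cell cannot be told apart. Of the 40 members, 38 passed the filter on low counts. The other 2, gpr182 and sox17, had at most 29 counts in the sum of the 2 libraries of any group.

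Defining endothelial genes such as cdh5 and kdrl were present and concentrated in the GFP-negative cells, while some abundant members were not. Per kilobase of gene length, the most abundant member in the GFP-negative cells was aplnra, an apelin receptor, at 55.0 ± 1.34 RPKM after IL4 and 140.6 ± 6.59 RPKM after PBS (SD, n = 2 each). After IL4 it was followed by mfsd2ab at 32.4 ± 0.472 RPKM and klf2a at 19.03 ± 0.124 RPKM, and after PBS by klf2a at 42.4 ± 1.52 RPKM and mfsd2ab at 41.4 ± 1.43 RPKM, which lie within their spread of each other. In GFP-positive cells aplnra had 99.4 ± 2.30 RPKM after IL4 and 151.1 ± 2.79 RPKM after PBS. There mfsd2ab had 62.8 ± 5.06 RPKM after IL4 and 48.8 ± 0.650 RPKM after PBS, so neither gene was concentrated in the GFP-negative cells. In GFP-negative cells the VE-cadherin gene cdh5 had 0.872 ± 0.214 RPKM after IL4 and 2.1 ± 0.126 RPKM after PBS. In GFP-positive cells it had 0.112 ± 0.0673 RPKM after IL4 and 0.184 ± 0.0330 RPKM after PBS. The VEGF receptor gene kdrl had 1.48 ± 0.225 RPKM after IL4 and 5.46 ± 0.0833 RPKM after PBS in GFP-negative cells. Its GFP-positive levels were 0.308 ± 0.00238 RPKM after IL4 and 0.365 ± 0.0886 RPKM after PBS.

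**Figure D1:**
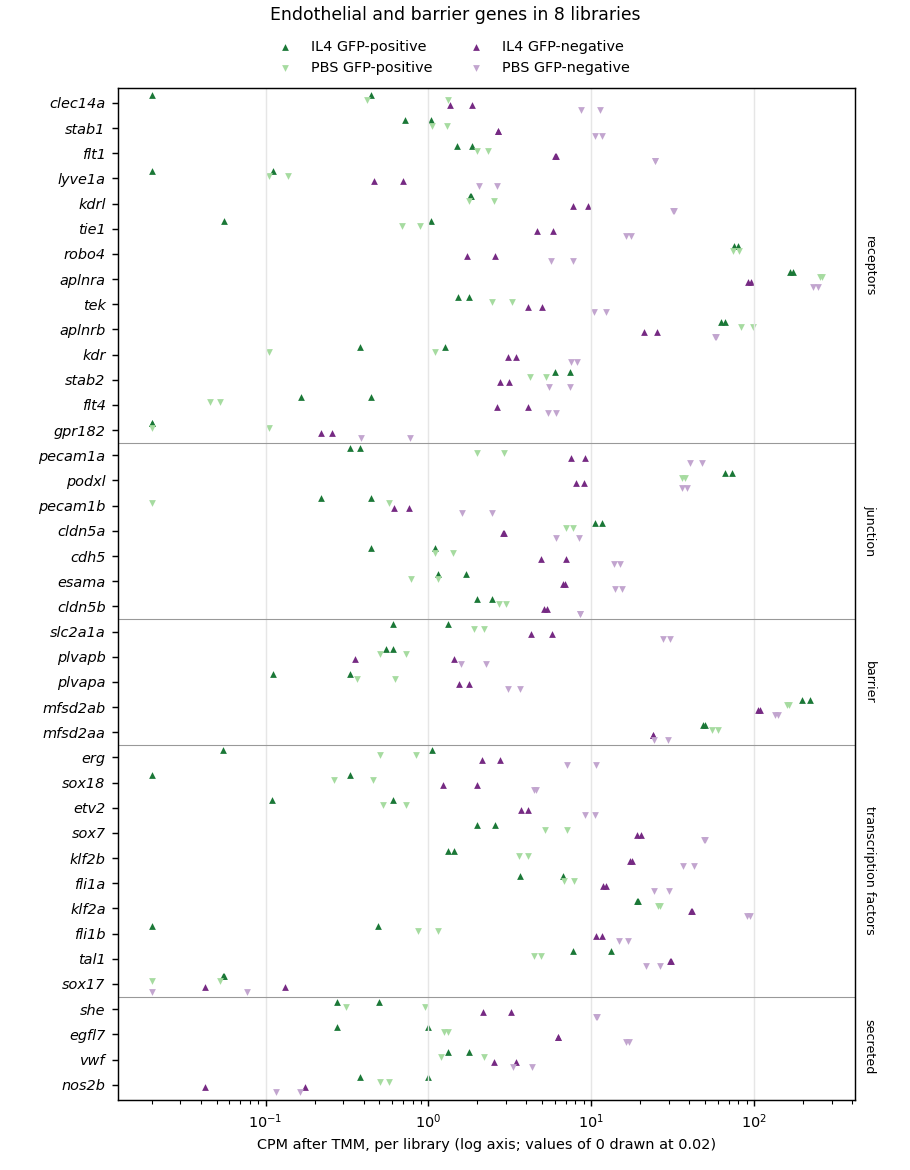
Level of each of the 40 matched genes in the 8 libraries, in CPM after TMM scaling on a log axis, with 1 triangle per library pointing up for IL4 and down for PBS, and values of 0 drawn at 0.02. The GFP-negative IL4 libraries lie left of the GFP-negative PBS libraries for most genes. The genes robo4, podxl, aplnra, aplnrb, mfsd2aa and mfsd2ab stand out by their level in GFP-positive cells.

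IL4 injection was followed by lower levels of most endothelial genes in the GFP-negative cells. Of 38 members tested there, 29 fell and 0 rose at an adjusted p under 0.05 (edgeR quasi-likelihood test, adjusted by Benjamini-Hochberg over 20508 genes). Over all genes tested, 15.4 percent fell and 9.04 percent rose. A fall of at least 2-fold that also passed this threshold was seen for 27 members, against 6.76 percent of all genes. The median log2 change, IL4 over PBS, was -1.33 over the members and -0.02 over all genes, and the members ranged from -2.63 for clec14a to 0.35 for tal1. In 35 members both IL4 libraries lay below both PBS libraries. The share of all genes separated in this way was not computed, so this count is a description only. The summed level of the members was 487 to 491 CPM after IL4 and 1060 to 1071 CPM after PBS, 2.18-fold lower after IL4. The abundant genes aplnra and mfsd2ab weigh heavily in this sum, at means of 240.1 and 137.5 CPM after PBS. Neither was concentrated in the GFP-negative cells.

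The receptors fell together, 12 of 13 tested, with a median log2 change of -1.65. The main zebrafish VEGF receptor gene of blood vessels, kdrl (ENSDARG00000105215, chromosome 14, 32643455 to 32704641, minus strand, GRCz10), had 7.76 and 9.63 CPM after IL4 and 31.7 and 32.4 CPM after PBS. Its groups were far apart, and it fell by 1.88 ± 0.17 on the log2 scale (SE, adjusted p = 5.29e-08). The gene of the VEGF-binding receptor Vegfr1, flt1 (chromosome 24, 21605636 to 21663645), had 5.98 and 6.11 CPM after IL4 and 24.8 and 24.8 CPM after PBS, a 4.1-fold fall (adjusted p = 3.41e-08). The second kdr-type gene, kdr, had 3.43 and 3.08 CPM after IL4 and 7.5 and 8.18 CPM after PBS. Its log2 change was -1.27 ± 0.40 (adjusted p = 0.0244), a call that ended when any 1 of the 4 GFP-negative libraries was left out (-1.19 to -1.35) and with DESeq2 (adjusted p = 0.443). The VEGF-C receptor gene flt4, known for venous and lymphatic vessels, had 2.63 and 4.09 CPM after IL4 and 6.11 and 5.43 CPM after PBS and did not pass (log2 -0.78 ± 0.32, adjusted p = 0.0856). With limma voom (adjusted p = 0.0171) and with the 2 groups alone (adjusted p = 0.0137) flt4 did pass.

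The angiopoietin receptor pair moved alike in size. The gene tie1 (chromosome 6, 33998984 to 34024189) had 5.81 and 4.62 CPM after IL4 and 17.6 and 16.3 CPM after PBS, a log2 change of -1.70 ± 0.30 (adjusted p = 0.000221). The angiopoietin-binding partner, tek, had 4.07 and 5.01 CPM after IL4 and 10.4 and 12.4 CPM after PBS, a log2 change of -1.33 ± 0.23 (adjusted p = 0.000209). Of all members, the endothelial lectin gene clec14a fell most, with 1.86 and 1.36 CPM after IL4 and 8.65 and 11.4 CPM after PBS (log2 -2.63 ± 0.41, adjusted p = 6.06e-05). With DESeq2 the adjusted p was 0.0518 for clec14a and 0.205 for tie1, at almost the same size of change.

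Both apelin receptor genes fell with narrow errors. The level of aplnra (chromosome 8, 40286105 to 40287812) was 95.6 and 92.4 CPM after IL4 and 232 and 248 CPM after PBS, a log2 change of -1.35 ± 0.05 (adjusted p = 2.39e-13). Its paralogue aplnrb had 25.5 and 21.1 CPM after IL4 and 57.9 and 58.4 CPM after PBS (log2 -1.32 ± 0.10, adjusted p = 3.93e-09). The guidance receptor gene robo4 had 1.74 and 2.55 CPM after IL4 and 7.77 and 5.63 CPM after PBS (log2 -1.65 ± 0.20, adjusted p = 2.19e-06). In all of these the groups did not overlap.

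The scavenger receptor genes, which in fish and mammals mark endothelium that takes up waste and are also known from macrophages, fell as well. For stab1 the libraries had 2.67 and 2.68 CPM after IL4 and 11.7 and 10.5 CPM after PBS (log2 -2.05 ± 0.26, adjusted p = 3.76e-06). For stab2 they had 2.75 and 3.12 CPM after IL4 and 7.42 and 5.47 CPM after PBS (log2 -1.13 ± 0.26, adjusted p = 0.00227), and the call ended without PBS GFP-negative replicate 1 (log2 -0.90). The hyaluronan receptor gene lyve1a was low throughout, at 0.466 and 0.703 CPM after IL4 and 2.04 and 2.63 CPM after PBS (log2 -1.99 ± 0.52, adjusted p = 0.00775). Leaving out IL4 GFP-negative replicate 1 (log2 -1.73) or PBS GFP-negative replicate 2 (log2 -1.79) ended this call. The exons of robo4, stab1, stab2 and vwf overlap those of a gene on the other strand by 226, 88, 183 and 401 bases, and whether reads were counted by strand is not given in the sources used here, so reads of such pairs cannot be told apart.

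Among the junction and adhesion genes, 6 of 7 fell, with a median log2 change of -1.32. The gene pecam1a (ENSDARG00000060263, chromosome 3, 59491910 to 59525948, plus strand), which encodes an adhesion molecule of endothelium and blood cells, had 7.5 and 9.19 CPM after IL4 and 48.2 and 40.6 CPM after PBS, 5.33-fold lower after IL4 (log2 -2.41 ± 0.17, adjusted p = 1.13e-09). The sialomucin gene podxl (chromosome 4, 11733307 to 11752188) had 8.01 and 9.01 CPM after IL4 and 36 and 39.1 CPM after PBS, 4.41-fold lower (log2 -2.14 ± 0.11, adjusted p = 1.73e-11). VE-cadherin, cdh5 (ENSDARG00000075549, chromosome 7, 44106370 to 44180006, plus strand), fell less, with 7.0 and 4.92 CPM after IL4 and 15 and 13.7 CPM after PBS (log2 -1.27 ± 0.25, adjusted p = 0.000591). The 2 groups did not overlap for any of these 3 genes.

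The tight junction gene cldn5a (chromosome 8, 4641497 to 4643053) had 2.88 and 2.90 CPM after IL4 and 6.11 and 8.39 CPM after PBS (log2 -1.32 ± 0.23, adjusted p = 0.000183). Its paralogue cldn5b had 5.38 and 5.10 CPM after IL4 and 8.50 and 8.51 CPM after PBS (log2 -0.70 ± 0.23, adjusted p = 0.0287). The call of cldn5b ended when any 1 of the 4 GFP-negative libraries was left out (log2 -0.66 to -0.74) and with DESeq2 (adjusted p = 0.0762). The immunoglobulin-type adhesion gene esama had 6.70 and 6.90 CPM after IL4 and 15.5 and 14.0 CPM after PBS (log2 -1.11 ± 0.21, adjusted p = 0.000516). The low-count gene pecam1b did not pass (0.763 and 0.615 CPM after IL4, 1.61 and 2.47 CPM after PBS, log2 -1.56 ± 0.63, adjusted p = 0.0834), although it did without PBS GFP-positive replicate 1 or 2 (log2 -1.53 each).

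The 5 barrier and transport genes were all lower after IL4, by -2.54 to -0.16 on the log2 scale, and 2 of them passed. The glucose transporter gene slc2a1a (ENSDARG00000001437, chromosome 23, 22273916 to 22286084, plus strand), which encodes Glut1, had 4.28 and 5.71 CPM after IL4 and 30.4 and 27.6 CPM after PBS, 5.80-fold lower after IL4 (log2 -2.54 ± 0.21, adjusted p = 1.21e-08). Another gene with the symbol SLC2A1, on chromosome 6 and told apart from it by its neighbouring genes, had 20.9 and 23.3 CPM after IL4 and 37.8 and 33.6 CPM after PBS, a log2 change of -0.69 ± 0.10 (adjusted p = 3.18e-05). Both glucose transporter genes therefore fell, by different amounts.

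The lipid transporter gene mfsd2ab (chromosome 19, 31280532 to 31296741) was abundant and fell little, with 106 and 109 CPM after IL4 and 141 and 134 CPM after PBS (log2 -0.35 ± 0.06, adjusted p = 0.000178). Its paralogue mfsd2aa had 24.0 and 24.0 CPM after IL4 and 29.4 and 24.3 CPM after PBS and did not pass (log2 -0.16 ± 0.11, adjusted p = 0.318). Of the fenestral diaphragm genes, plvapa had 1.78 and 1.54 CPM after IL4 and 3.65 and 3.08 CPM after PBS (log2 -1.02 ± 0.39, adjusted p = 0.0651). The other, plvapb, had 1.44 and 0.352 CPM after IL4 and 1.58 and 2.27 CPM after PBS (log2 -1.09 ± 0.53, adjusted p = 0.155). Neither passed, although plvapa passed when any 1 of the 4 GFP-positive libraries was left out (log2 -1.0 each) and plvapb passed without IL4 GFP-negative replicate 1 (log2 -2.43).

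Of the transcription factor genes tested, 7 of 9 fell, with a median log2 change of -1.18. The ETS factor gene fli1a (ENSDARG00000054632, chromosome 18, 48429318 to 48493178, plus strand), whose promoter is widely used to label fish vessels, had 11.9 and 12.3 CPM after IL4 and 30.1 and 24.4 CPM after PBS (log2 -1.17 ± 0.19, adjusted p = 9.15e-05). Its paralogue fli1b, at 10.6 and 11.7 CPM after IL4 and 16.8 and 14.8 CPM after PBS, did not pass (log2 -0.50 ± 0.25, adjusted p = 0.158). With limma voom (adjusted p = 0.025) and with the 2 groups alone (adjusted p = 0.00887) fli1b did pass. The neighbouring ETS factor gene etv2, on chromosome 16 with 4126 bases between it and fli1b, had 4.11 and 3.69 CPM after IL4 and 10.6 and 9.12 CPM after PBS (log2 -1.33 ± 0.29, adjusted p = 0.00169). The ETS factor gene erg had 2.12 and 2.77 CPM after IL4 and 7.15 and 10.7 CPM after PBS (log2 -1.87 ± 0.40, adjusted p = 0.00157), and its call ended without PBS GFP-negative replicate 2 (log2 -1.55) and with DESeq2 (adjusted p = 0.204).

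The SOXF factors specify arteries, veins and lymphatics. Of them, sox7 (chromosome 20, 19167013 to 19178841) had 20.3 and 19.2 CPM after IL4 and 49.7 and 49.5 CPM after PBS (log2 -1.33 ± 0.14, adjusted p = 2.78e-07). The lower-count gene sox18 (chromosome 23, 8862173 to 8864910) had 1.23 and 1.98 CPM after IL4 and 4.58 and 4.46 CPM after PBS (log2 -1.49 ± 0.43, adjusted p = 0.0150). This call was lost on leaving out IL4 GFP-negative replicate 1 (log2 -1.19), PBS GFP-negative replicate 1 (-1.48) or PBS GFP-negative replicate 2 (-1.51). The sum for sox17 over 2 libraries was 4 counts after IL4 and 2 counts after PBS, a ratio of 2.19 with a 95% counting interval from 0.314 to 24.2.

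The Klf2 factors, which are induced by blood flow in endothelium, fell by similar amounts. The level of klf2a (chromosome 22, 15871951 to 15874649) was 41.3 and 41.7 CPM after IL4 and 94.8 and 90.1 CPM after PBS (log2 -1.16 ± 0.08, adjusted p = 2.13e-09). The level of klf2b (chromosome 19, 17832518 to 17838270) was 17.2 and 17.8 CPM after IL4 and 36.7 and 42.9 CPM after PBS (log2 -1.18 ± 0.14, adjusted p = 1.68e-06). The blood and endothelial progenitor factor gene tal1 (chromosome 22, 16509305 to 16519060) differed in direction from the rest, with 30.6 and 31.0 CPM after IL4 and 26.4 and 21.8 CPM after PBS, and did not pass (log2 0.35 ± 0.17, adjusted p = 0.147). It was the only member whose IL4 libraries both lay above its PBS libraries, and it passed without IL4 GFP-positive replicate 1 or 2 (log2 0.37 each).

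Of the 4 secreted and signalling genes, 2 fell. The secreted vessel factor gene egfl7 had 6.27 and 6.29 CPM after IL4 and 16.4 and 17.0 CPM after PBS (log2 -1.41 ± 0.23, adjusted p = 0.000118). The gene she, which encodes an SH2-domain adaptor, had 2.16 and 3.21 CPM after IL4 and 10.7 and 10.9 CPM after PBS (log2 -2.0 ± 0.31, adjusted p = 5.13e-05). The clotting factor gene vwf overlapped between the groups (2.54 and 3.47 CPM after IL4, 4.31 and 3.32 CPM after PBS, adjusted p = 0.520), as did nos2b, an inducible nitric oxide synthase gene with at most 0.176 CPM in these 4 libraries (adjusted p = 0.862). The other gene with the symbol NOS2, on chromosome 5, rose, with 2.67 and 2.64 CPM after IL4 and 0.692 and 0.770 CPM after PBS (log2 1.85 ± 0.45, adjusted p = 0.00434).

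Markers of other cells, and immediate early genes, moved in the same libraries. Of 19 microglia and macrophage markers, 17 fell in the GFP-negative cells, with a median log2 change of -1.89, and their summed level was 2795 to 2844 CPM after IL4 and 8593 to 8978 CPM after PBS. Of 18 mural cell markers, 8 fell (340 to 344 CPM after IL4, 456 to 465 CPM after PBS), and of 12 fibroblast markers, 5 fell (75.9 to 78.8 CPM after IL4, 192 to 211 CPM after PBS). None of these 3 lists had a gene at 0 counts in a GFP-negative library. Of 15 neuronal markers, 8 rose and 0 fell, with summed levels of 6356 to 6434 CPM after IL4 and 4658 to 4689 CPM after PBS. Of 24 immediate early genes, which cells switch on under stress and dissociation, 14 fell and 3 rose, with summed levels of 7400 to 7561 CPM after IL4 and 9079 to 9405 CPM after PBS. The part that these shifts have in the endothelial values was not tested.

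**Figure D2:**
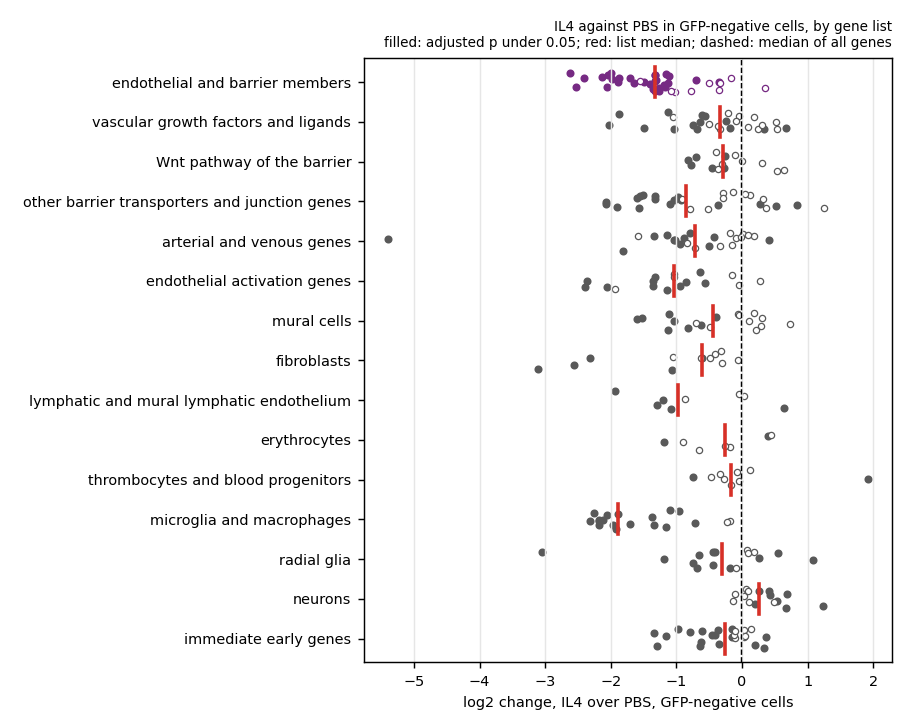
Log2 change, IL4 over PBS, in GFP-negative cells for the endothelial and barrier members in purple and for 14 other gene lists in grey, with filled points at an adjusted p under 0.05, the median of each list in red and the median of all genes dashed. The members have a median of -1.33, the microglia and macrophage markers -1.89, and the neuronal markers lie above 0 at 0.25.

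The other genes of the vascular pathways gave a mixed picture in the same comparison. Of 27 vascular ligands and growth factors, 12 fell and 2 rose. The angiopoietin gene angpt2a (log2 -2.03 ± 0.59), the chemokine gene cxcl12b (-1.88 ± 0.13) and the platelet-derived growth factor genes pdgfbb (-1.49 ± 0.25) and pdgfba (-1.12 ± 0.20), whose products recruit mural cells, were the 4 with the largest called changes. For cxcl12b the libraries had 17.3 and 16.4 CPM after IL4 and 62.9 and 60.6 CPM after PBS. Of 14 genes of the Wnt pathway that builds the barrier, 6 fell and 0 rose, all by less than 2-fold. Among them were reck (log2 -0.77 ± 0.17), a co-receptor for Wnt7 ligands, the receptor gene lrp5 (-0.69 ± 0.18) and the Wnt effector gene lef1 (-0.46 ± 0.10). After PBS, lrp5 was higher in GFP-positive cells (22.9 and 18.7 against 7.15 and 7.94 CPM), while reck and lef1 were lower there.

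Of 28 other barrier transporters and junction genes, 14 fell and 3 rose, with a median log2 change of -0.85. The efflux pump gene abcg2a had 9.03 and 6.33 CPM after IL4 and 32.2 and 32.3 CPM after PBS (log2 -2.07 ± 0.21, adjusted p = 1.91e-07). The organic anion transporter gene slco1d1 (log2 -2.07 ± 0.17), the junction gene cgnl1 (-1.90 ± 0.21) and the amino acid transporter subunit gene slc3a2a (-1.61 ± 0.06) followed. Of 23 arterial and venous genes, 11 fell and 1 rose. These included acvrl1 (log2 -1.81 ± 0.18), a receptor of the BMP family, ephb4b (-1.34 ± 0.25), a venous ephrin receptor gene, and hey2 (-1.14 ± 0.19), an arterial Notch target. After PBS, hey2 was higher in GFP-positive than in GFP-negative cells (44.07 and 40.99 against 5.998 and 7.414 CPM). So were cgnl1 (19.84 and 17.99 against 7.766 and 9.197 CPM) and slc3a2a (416.2 and 412.1 against 130.5 and 141.5 CPM). For ephb4b the fractions overlapped, while abcg2a, slco1d1 and acvrl1 had lower levels in GFP-positive cells.

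Genes that endothelium switches on when activated also fell, 11 of 17, with 0 higher. The stress enzyme gene hmox1a, which macrophages also use, had 86.5 and 80.6 CPM after IL4 and 427 and 451 CPM after PBS (log2 -2.39 ± 0.07, adjusted p = 1.07e-15). The leukocyte adhesion gene vcam1a (log2 -2.05 ± 0.57), the chemokine scavenger gene ACKR3 on chromosome 9 (-2.36 ± 0.16) and the vasoconstrictor gene edn1 (-1.36 ± 0.40) fell too. Of 8 genes tested from lymphatic vessels and the mural lymphatic cells of the meninges, 4 fell and 1 rose. Those that fell included mrc1a (log2 -1.94 ± 0.42) and lyve1b (-1.29 ± 0.37). The summed level of the 9 genes matched in this list went the other way. It was 9762 to 9772 CPM after IL4 and 6897 to 7173 CPM after PBS. A sum follows the most abundant genes. In these libraries mrc1a, lyve1b and pparg had at most 12.1 CPM. The level of fabp11a was 432 and 440 CPM after IL4 and 969 and 1044 CPM after PBS. The rise of the sum therefore lies in other genes of the list. The median log2 change over all 8 genes tested was -0.97. Red cell markers gave 1 higher and 1 lower of 7, and thrombocyte and blood progenitor markers 1 higher and 1 lower of 9.

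In the GFP-positive cells, where the endothelial genes were mostly low, most members did not pass for IL4 against PBS. Of 38 members, 8 fell and 4 rose, against 14.8 and 13.9 percent of all genes, and 26 did not pass. These counts are not far from the shares over all genes. The members' median log2 change was -0.43, against 0.01 for all genes. The defining endothelial genes cdh5 and kdrl were low in these cells. The first, cdh5, had 1.09 and 0.442 CPM after IL4 and 1.42 and 1.1 CPM after PBS (log2 -0.71 ± 0.42, adjusted p = 0.222). Without IL4 GFP-positive replicate 1 the change of cdh5 was -1.56 and passed. For kdrl the libraries had 1.80 and 1.82 CPM after IL4 and 2.51 and 1.78 CPM after PBS, and the groups overlapped (log2 -0.25 ± 0.27, adjusted p = 0.529). In the same libraries 16 of 19 microglia and macrophage markers fell, with summed levels of 382 to 385 CPM after IL4 and 914 to 921 CPM after PBS, and 9 of 15 neuronal markers rose. Of 16 radial glia markers, 11 fell and 1 rose, with summed levels of 39030 to 39150 CPM after IL4 and 50430 to 51450 CPM after PBS. Of 24 immediate early genes, which respond to stress and dissociation, 13 fell and 6 rose. Their part in the members' values was not tested.

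The members that fell in GFP-positive cells were pecam1a, fli1b, klf2b, sox7, slc2a1a, aplnra, aplnrb and klf2a. The level of pecam1a was 0.382 and 0.331 CPM after IL4 and 2.93 and 1.99 CPM after PBS (log2 -2.78 ± 0.38, adjusted p = 1.54e-05). The flow-responsive gene klf2b had 1.31 and 1.44 CPM after IL4 and 4.07 and 3.61 CPM after PBS (log2 -1.48 ± 0.24, adjusted p = 8.85e-05), and klf2a had 19.1 and 19.3 CPM after IL4 and 25.9 and 26.4 CPM after PBS (log2 -0.45 ± 0.10, adjusted p = 0.00163). The SOXF gene sox7 had 2.57 and 1.99 CPM after IL4 and 5.21 and 7.06 CPM after PBS (log2 -1.42 ± 0.21, adjusted p = 3.72e-05). In these 4 genes the groups did not overlap.

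The apelin receptors fell less than in the GFP-negative cells. The level of aplnra was 172 and 167 CPM after IL4 and 261 and 255 CPM after PBS (log2 -0.60 ± 0.05, adjusted p = 5.77e-08). The level of aplnrb was 62.8 and 66.4 CPM after IL4 and 83 and 98.1 CPM after PBS (log2 -0.49 ± 0.09, adjusted p = 0.000543). The falls of fli1b and slc2a1a rested on few reads and depended on the method. With the 2 groups alone, neither fli1b (adjusted p = 0.0954) nor slc2a1a (adjusted p = 0.114) passed. With limma voom slc2a1a did not pass either (adjusted p = 0.073). For fli1b the libraries had 0.492 and 0 CPM after IL4 and 0.869 and 1.15 CPM after PBS (log2 -2.0 ± 0.61, adjusted p = 0.0182), and the fitted change was -7.54 without IL4 GFP-positive replicate 1 and no longer passed without IL4 GFP-positive replicate 2 (-1.08) or PBS GFP-positive replicate 2 (-1.85). For slc2a1a they had 1.31 and 0.607 CPM after IL4 and 1.92 and 2.20 CPM after PBS (log2 -1.09 ± 0.34, adjusted p = 0.0212), with -1.80 without IL4 GFP-positive replicate 1 and no call without IL4 GFP-positive replicate 2 (-0.70) or PBS GFP-positive replicate 2 (-1.06).

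The members that rose in GFP-positive cells were podxl, tal1, cldn5a and mfsd2ab. The level of podxl was 72.8 and 66.0 CPM after IL4 and 37.5 and 36 CPM after PBS (log2 0.92 ± 0.10, adjusted p = 8.13e-07). The lipid transporter gene mfsd2ab had 220.3 and 196 CPM after IL4 and 160.5 and 164 CPM after PBS (log2 0.36 ± 0.06, adjusted p = 0.000125, and 0.22 without IL4 GFP-positive replicate 1). The factor gene tal1 had 13.2 and 7.79 CPM after IL4 and 4.94 and 4.44 CPM after PBS (log2 1.16 ± 0.22, adjusted p = 0.000368, and 0.67 without IL4 GFP-positive replicate 1). The tight junction gene cldn5a had 10.5 and 11.6 CPM after IL4 and 7.04 and 7.74 CPM after PBS (log2 0.58 ± 0.21, adjusted p = 0.0439). That call was near the threshold: it ended with DESeq2 (adjusted p = 0.110), with RLE size factors (adjusted p = 0.0664), without either IL4 GFP-negative library (log2 0.58 and 0.59), without either IL4 GFP-positive library (0.60 without replicate 1 and 0.45 without replicate 2) and without either PBS GFP-positive library (0.46 and 0.59).

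**Figure D3:**
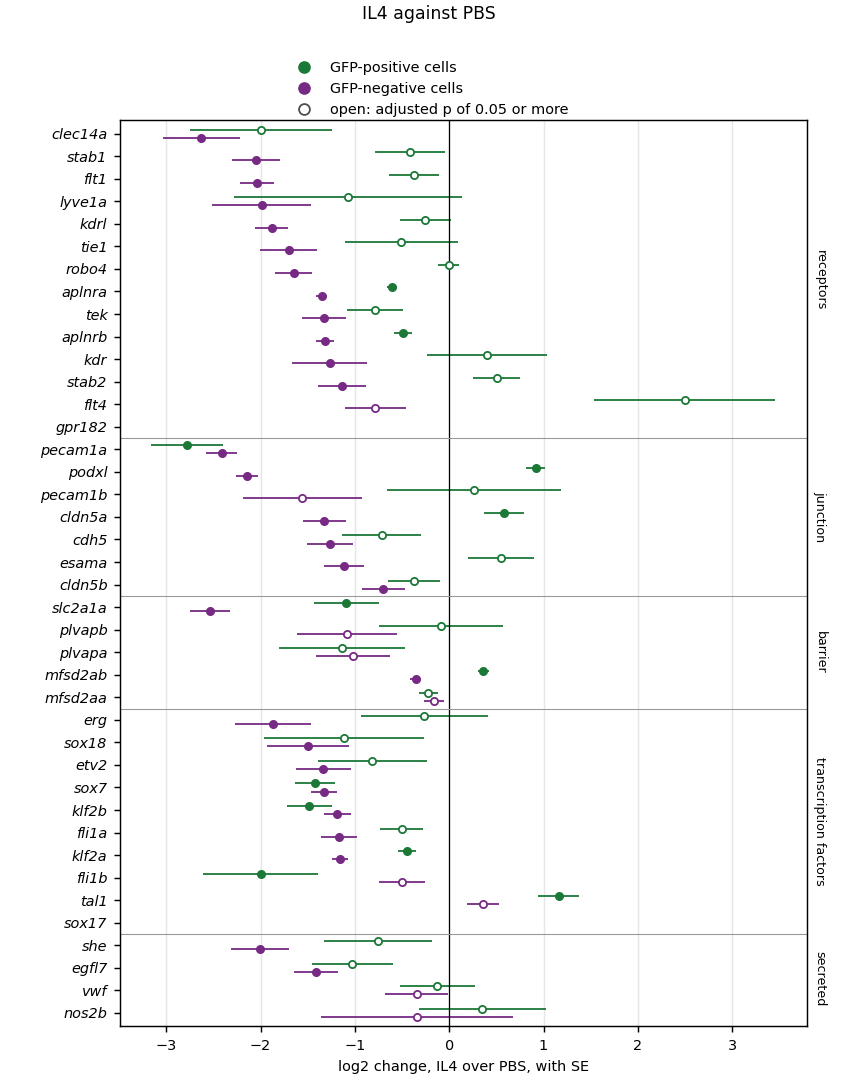
Log2 change, IL4 over PBS, of each member in GFP-positive cells (green) and GFP-negative cells (purple), with bars for the SE, filled points at an adjusted p under 0.05 and no point for gpr182 and sox17, which were not tested. Purple points lie left of 0 for 37 of 38 members, while podxl, cldn5a, mfsd2ab and tal1 have filled green points right of 0.

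The response of the members differed between the sorted fractions. The difference, the IL4 change in GFP-positive cells minus that in GFP-negative cells, was tested as an interaction term. It was above 0 for 15 of 38 members and below 0 for 0, against 11.5 and 7.26 percent of all genes, with a median of 0.78 over the members and 0.07 over all genes. By role, 8 of 13 receptors, 3 of 7 junction genes, 2 of 5 barrier genes, 2 of 9 transcription factors and 0 of 4 secreted or signalling genes passed.

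Among the genes that passed, podxl, cldn5a and mfsd2ab rose in one fraction and fell in the other. Their differences were 3.06 ± 0.15 for podxl (adjusted p = 3.17e-11), 1.91 ± 0.31 for cldn5a (adjusted p = 0.000190) and 0.72 ± 0.09 for mfsd2ab (adjusted p = 5.72e-06). The receptor robo4 had 75.5 and 79.4 CPM after IL4 and 74.0 and 81.5 CPM after PBS in GFP-positive cells, where the groups overlapped, and its difference was 1.64 ± 0.23 (adjusted p = 3.10e-05). For aplnra and aplnrb, which fell in both fractions, the differences were 0.75 ± 0.08 (adjusted p = 7.10e-07) and 0.83 ± 0.14 (adjusted p = 0.000217).

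The vessel genes kdrl and flt1 also differed, by 1.63 ± 0.32 (adjusted p = 0.00124) and 1.67 ± 0.32 (adjusted p = 0.00104). In GFP-positive cells flt1 had 1.86 and 1.49 CPM after IL4 and 2.33 and 1.99 CPM after PBS (log2 -0.37 ± 0.27, adjusted p = 0.329). For stab2, with 6.01 and 7.4 CPM after IL4 and 4.21 and 5.28 CPM after PBS in GFP-positive cells (log2 0.51 ± 0.25, adjusted p = 0.149), the difference was 1.64 ± 0.36 (adjusted p = 0.00290). No difference passed for pecam1a (-0.36 ± 0.45, adjusted p = 0.640), which fell in both fractions.

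Some of these calls were lost when a library was left out, at times with almost the same size of difference. The difference for flt4 (3.28 ± 1.0, adjusted p = 0.0269) came from GFP-positive libraries with 11 counts in all after IL4 and 2 counts after PBS, a ratio of 6.19 with a 95% counting interval from 1.35 to 57.5. That of esama (1.67 ± 0.41, adjusted p = 0.00665) was lost without IL4 GFP-positive replicate 2 (1.27). That of klf2a was 0.71 ± 0.13 (adjusted p = 0.000531). Those of flt4, slc2a1a (1.45 ± 0.42), stab1 (1.64 ± 0.46) and tal1 (0.81 ± 0.27) each ended when 1 of several libraries was left out, as listed with the flagged results. Some also depended on the method with all 8 libraries kept. The difference of tal1 did not pass with DESeq2 (adjusted p = 0.0693), limma voom (adjusted p = 0.0721) or RLE size factors (adjusted p = 0.069). Those of slc2a1a (adjusted p = 0.0641) and flt4 (adjusted p = 0.0713) did not pass with limma voom.

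**Figure D4:**
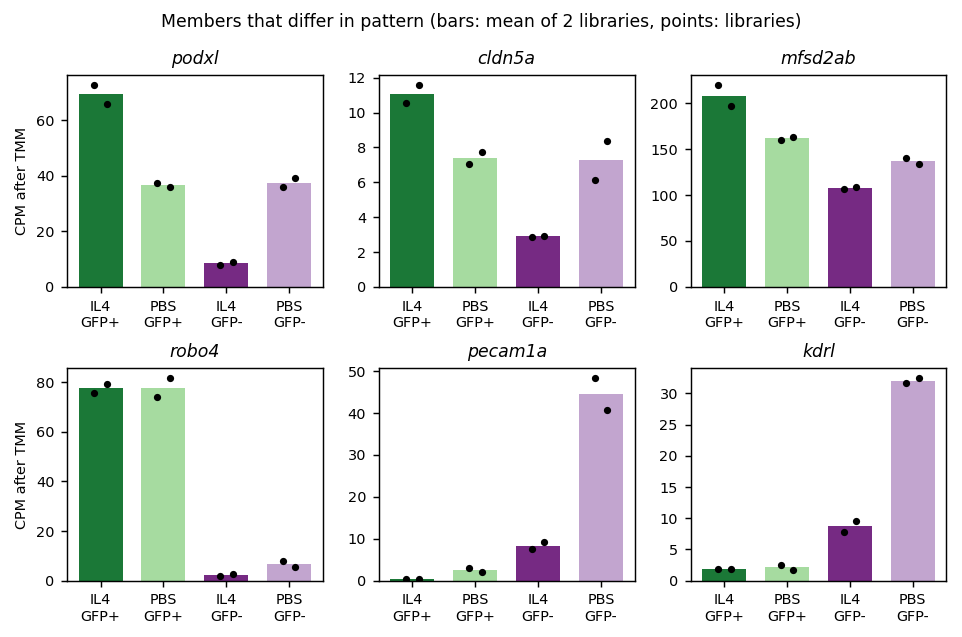
CPM after TMM scaling of members that differ in pattern, with bars for the mean of 2 libraries and points for the libraries, in GFP-positive and GFP-negative cells after IL4 and PBS. The gene podxl has 72.8 and 66.0 CPM in IL4 GFP-positive libraries and 8.01 and 9.01 CPM in IL4 GFP-negative ones, while after PBS both fractions lie between 36 and 39.1 CPM.

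The sort itself separated most members. After PBS, 29 of 38 were lower and 5 higher in GFP-positive than in GFP-negative cells, where 39.1 and 32.6 percent of all genes were lower and higher, and the median log2 difference was -3.13 over the members and -0.14 over all genes. After IL4, 27 were lower and 9 higher, where 34.3 and 32.4 percent of all genes were, with medians of -1.91 and -0.05. These comparisons use the same libraries as those of IL4 with PBS, so their values are set side by side only. Without scaling factors, the median of all genes moves by -0.48 after PBS and by -0.44 after IL4, and the split of called members after PBS becomes 2 higher and 33 lower.

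The defining vessel genes were among the lower ones. GFP-positive over GFP-negative, the log2 difference was -3.50 ± 0.30 for cdh5, -3.89 ± 0.20 for kdrl, -4.16 ± 0.20 for pecam1a and -3.82 ± 0.24 for slc2a1a after PBS. After IL4 it was -2.95 ± 0.34 for cdh5, -2.26 ± 0.23 for kdrl, -4.52 ± 0.31 for pecam1a and -2.37 ± 0.30 for slc2a1a. The other SLC2A1 gene, on chromosome 6, ran the other way. It had 64.7 and 58.3 CPM in GFP-positive and 20.9 and 23.3 CPM in GFP-negative cells after IL4. After PBS it had 55.9 and 59.2 against 37.8 and 33.6 CPM. All 9 transcription factors tested were lower in GFP-positive cells after both injections, for example klf2b by -3.37 ± 0.16 and sox7 by -3.02 ± 0.16 after PBS, with the exception that erg did not pass with DESeq2 after IL4 (adjusted p = 0.0647). For flt4 after PBS, 2 counts in GFP-positive cells stood against 293 in GFP-negative cells, a ratio of 118.5 with a 95% counting interval from 32.5 to 983. For gpr182, a chemokine-scavenging receptor gene, 0 counts in GFP-positive cells stood against 11 in GFP-negative cells after IL4, at least 2.88-fold lower with the floor set at 3 counts over the group. The same gene had 2 against 29 counts after PBS, a ratio of 11.7 with an interval from 2.97 to 101.

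Several members ran the other way. The receptor gene robo4 (ENSDARG00000009387, chromosome 10, 31358279 to 31394209, plus strand), which belongs to the Roundabout family of guidance receptors, was 36.2-fold higher in GFP-positive than in GFP-negative cells after IL4 and 11.6-fold higher after PBS (log2 5.18 ± 0.16 and 3.53 ± 0.14). The lipid transporter gene mfsd2aa had 49.9 and 48.9 CPM in GFP-positive and 24.0 and 24.0 CPM in GFP-negative cells after IL4, and 55.0 and 60.2 against 29.4 and 24.3 CPM after PBS (log2 1.04 ± 0.11 and 1.1 ± 0.10). The apelin receptor gene aplnrb was higher in GFP-positive cells by 1.47 ± 0.10 after IL4 and by 0.64 ± 0.09 after PBS, and without scaling factors its PBS difference was 0.15 and did not pass. The nitric oxide synthase gene nos2b was called higher at 2.61 ± 0.84 after IL4 and 1.92 ± 0.81 after PBS on at most 0.994 CPM. With all 8 libraries, its call after PBS was lost with DESeq2 (adjusted p = 0.121), library totals (0.117) and no filter (0.0555). The call after IL4 was lost when IL4 GFP-negative replicate 1 (1.93) or IL4 GFP-positive replicate 2 (1.78) was left out, and the call after PBS when any 1 of 6 libraries was (1.69 to 2.16).

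For 3 further members the PBS difference between the fractions depended on the scaling, while the IL4 difference was called. After PBS, podxl differed by -0.03 ± 0.10 (adjusted p = 0.801), cldn5a by 0.03 ± 0.21 (adjusted p = 0.912) and aplnra by 0.10 ± 0.05 (adjusted p = 0.0818), none of which passed. Without scaling factors, podxl was lower in GFP-positive cells by -0.51 (adjusted p = 0.00015) and aplnra by -0.38 (adjusted p = 1.41e-06), and cldn5a was -0.46 without passing. The PBS difference of aplnra was instead called higher with DESeq2 (0.14, adjusted p = 0.0282), RLE size factors (0.14, adjusted p = 0.0212), limma voom (0.11, adjusted p = 0.0365) and the 2 groups alone (0.19, adjusted p = 0.00824). It was also called higher without either IL4 GFP-positive library (0.19 each), without PBS GFP-negative replicate 2 (0.15) and without PBS GFP-positive replicate 1 (0.16) or 2 (0.21). After IL4, podxl was higher in GFP-positive cells by 3.03 ± 0.11, cldn5a by 1.93 ± 0.23 and aplnra by 0.85 ± 0.06. The gene mfsd2ab was higher by 0.95 ± 0.06 after IL4 and by 0.24 ± 0.06 after PBS. Without scaling factors its PBS difference was -0.25 (adjusted p = 0.00158), a call in the opposite direction. The test of the change between the injections is the interaction given above for these genes.

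**Figure D5:**
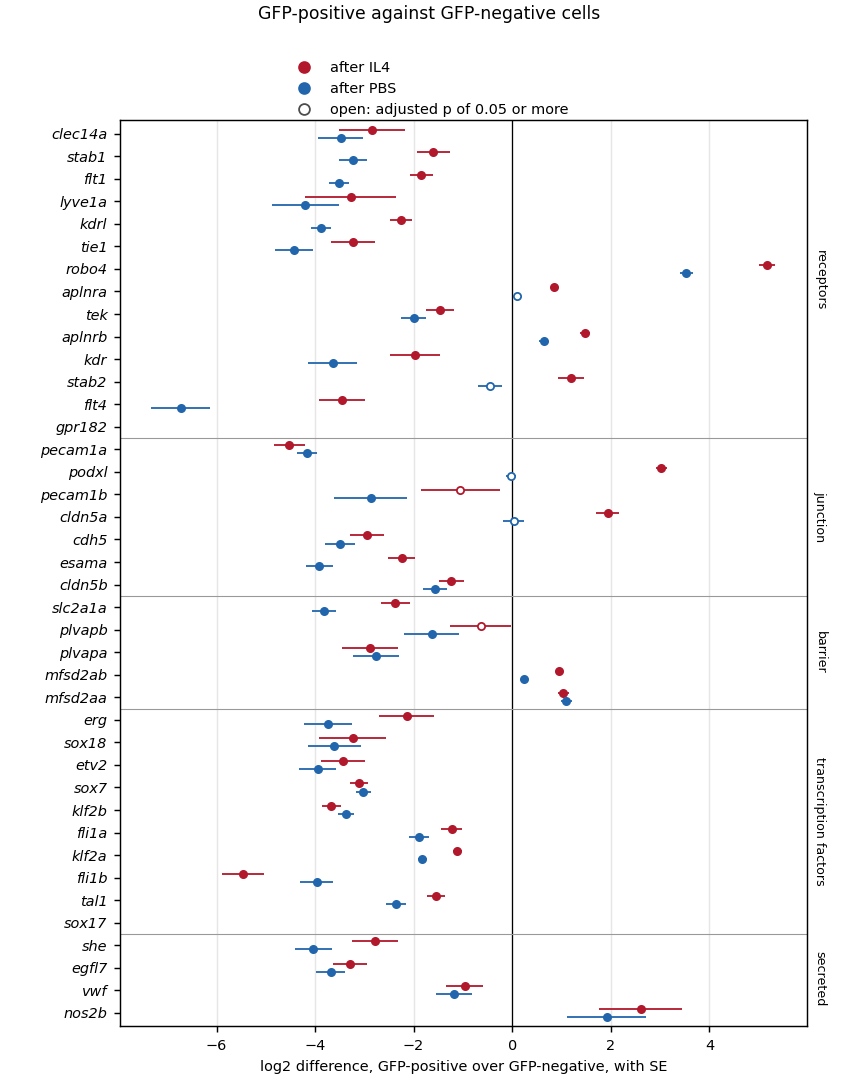
Log2 difference, GFP-positive over GFP-negative cells, of each member after IL4 and after PBS, with bars for the SE and filled points at an adjusted p under 0.05. Most members lie left of 0, robo4 lies farthest right at 5.18 after IL4 and 3.53 after PBS, and podxl and cldn5a lie near 0 after PBS and right of it after IL4. Without scaling factors, podxl, cldn5a, aplnra and mfsd2ab are below 0 after PBS.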

How the data were processed

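The deposited table holds whole-number read counts per gene with no normalization, made by the authors with featureCounts on GRCz10 (danRer10), per the submitters' processing notes. The aligner, versions, strand setting and handling of reads with several alignments are not given in the sources used here. Of its count columns, 0 were left without a sample. The series' design text names other injections and a later time. The labels of the libraries were followed, since they match the columns.

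Members were matched by symbol (30), by RefSeq synonym (3) or by symbol without the paralogue letter (7). Of the 7, 6 paralogues were told apart by the 15 genes on each side in a RefSeq table, used for names and neighbours only. Sequences were not used here. Members and lists were chosen with earlier results of these data known. Genes named outside the members are at most 4 per list, those of the largest called change in GFP-negative cells, plus her4.1 as a check of the sort.

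The tests used edgeR 4.0.16 (R 4.3.3) with TMM factors, filterByExpr (minimum count 10, 20508 genes kept, 10880 removed) and quasi-likelihood F tests, robust, on 1 mean for each of the 4 groups, which leaves 4 residual degrees of freedom for the 8 libraries. P-values are two-sided. The Benjamini-Hochberg adjustment runs over the 20508 genes, with a threshold of 0.05. The SE is the log2 change divided by the square root of F. CPM are after TMM, and RPKM use the deposited gene length. Alternatives were RLE size factors, library totals, no filter, DESeq2 1.42.0, limma 3.58.1 voom, a replicate block, the 2 groups alone, and each library left out, where a lone library is assumed to vary like the other groups. The code was tested on simulated data. Deviations of same-numbered libraries correlated by -0.0106 to 0.00662 over the genes kept. Counting noise enters these values, so they do not settle whether same-numbered libraries came from the same fish. The main fit treats the libraries as unpaired. Intervals and floors cover counting error only.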

Additional observations from a re-analysis of the deposited data

Results flagged for a closer look

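The change after IL4 differed between GFP-positive and GFP-negative cells for 15 members, by the interaction term (GFP-positive minus GFP-negative, log2, edgeR). The receptors were flt4 (3.28), flt1 (1.67), robo4 (1.64), stab1 (1.64), stab2 (1.64), kdrl (1.63), aplnrb (0.83) and aplnra (0.75). The junction genes were podxl (3.06), cldn5a (1.91) and esama (1.67). The barrier genes were slc2a1a (1.45) and mfsd2ab (0.72), and the transcription factors tal1 (0.81) and klf2a (0.71). For podxl, cldn5a and mfsd2ab the direction differed as well, higher after IL4 in GFP-positive cells and lower after IL4 in GFP-negative cells.

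The difference of tal1 was 0.30 without IL4 GFP-positive replicate 1, 0.80 or 0.82 without IL4 GFP-negative replicate 1 or 2, 0.66 without PBS GFP-negative replicate 1, and 0.81 or 0.65 without the first or the second PBS GFP-positive library, and passed in none of these. That of slc2a1a was 0.72 without IL4 GFP-positive replicate 1, 1.25 without IL4 GFP-negative replicate 1, 1.27 without PBS GFP-positive replicate 1 and 1.38 without PBS GFP-negative replicate 1, again without passing. That of stab1 did not pass when the first library of a group was left out, at 1.28 for IL4 GFP-positive, 1.64 for IL4 GFP-negative, 1.40 for PBS GFP-positive and 1.56 for PBS GFP-negative cells. That of flt4 did not pass without IL4 GFP-positive replicate 2 (2.35) or IL4 GFP-negative replicate 1 (2.997). Nor did it pass without PBS GFP-negative replicate 1 (3.19) or when either PBS GFP-positive library was left out (3.12 and 3.29). Of 19 microglia and macrophage markers, 16 fell in GFP-positive and 17 in GFP-negative cells. Their difference was above 0 for 10 and below 0 for 1, and their part in the members' differences was not tested.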

How the results depend on the processing

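The number of members called stayed within 1.5 times its value under every alternative run, in all 5 comparisons. For IL4 against PBS in GFP-negative cells, 29 calls became 24 with DESeq2 and 35 with limma voom, and 24 to 31 when 1 library was left out. In GFP-positive cells 12 calls became 10 to 14, and 11 to 15 without 1 library. The 15 differences between fractions became 12 to 17, and 11 to 16 without 1 library. For the sort, 34 calls after PBS became 34 to 35 (32 to 36 without 1 library) and 36 after IL4 became 33 to 38 (35 to 37). With the replicate block the counts were 12, 29, 15, 34 and 36, the same as without it. In GFP-negative cells, flt4, fli1b, plvapa, plvapb and pecam1b newly passed as lower with limma voom, and tal1 as higher. With the 2 groups alone, all of these but plvapb newly passed. Counting both genes of the symbols SLC2A1 and NOS2, chosen after seeing the data, gave 30 lower and 1 higher of 40 in GFP-negative cells.

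Of 2111 recomputed values of single genes, 1985 kept their direction and side of the threshold, 81 no longer passed, 32 newly passed and 13 changed sign. The changes of sign were in 5 values, of which only that of mfsd2ab was called in the main fit. For nos2b in GFP-negative cells, the range without 1 library was -1.58 to 0.33. For the sort after PBS with library totals, aplnra was -0.38 and was called lower (adjusted p = 1.41e-06, against 0.0818 with TMM). There cldn5a was -0.46 without passing, and mfsd2ab was -0.25, called in the opposite direction (adjusted p = 0.00158). The value of podxl there was -0.51 (adjusted p = 0.00015, against 0.801 with TMM). In that comparison podxl was also 0.0074 with DESeq2 and with RLE size factors, 0.052 with the 2 groups alone and -0.091 to 0.083 without 1 library, and cldn5a was -0.19 to 0.27 without 1 library. With 2 libraries a group, genes of under about 1 CPM have wide errors, and differences in them that did not pass were not detectable at this depth.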
